A study of Rattus norvegicus with 32 samples.

Results

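The cytosolic ribosomal proteins are the protein part of the ribosome outside the mitochondria, and their mRNAs were followed here in the left ventricle of septic rats. Members were all non-control probes of the array whose gene name, in either version of the array annotation found in the scanner files, was Rpl or Rps with a number (and an a or x where present), Rplp0, Rplp1, Rplp2 or Rpsa. The rule found 202 of 45598 probes, which stand for 77 genes, 31 of the small and 46 of the large ribosomal subunit. The rule reads gene names and no measured value, although the family was picked for description with earlier results of these data known. Both annotations named 190 of the probes alike, 4 carried a member name only in the version of the male files and 8 only in that of the female files.

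Young adult Wistar rats of both sexes were operated as sham controls or underwent CLP (cecal ligation and puncture, which releases gut bacteria into the abdomen and causes sepsis), and septic rats received saline or landiolol, a short-acting blocker of the cardiac beta-adrenergic receptor infused from shortly after surgery. There were 5 sham, 5 CLP and 6 CLP plus landiolol rats of each sex, no antibiotics were used, and buprenorphine was given against pain before surgery. Hearts were used for imaging and for isolated perfusion (Langendorff) before they were frozen 20 h after surgery, which all groups shared. RNA of each left ventricle, with no pooling, was hybridised to 1 array with a single dye, and replicate numbers only name an array. The hearts were chosen from a larger number of rats tested in vivo.

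A ribosome has a small subunit, which reads the mRNA, and a large subunit, which joins the amino acids, and each protein is needed in about the same number of copies. Most ribosomal protein mRNAs of mammals begin with a cytosine followed by a run of pyrimidines, the 5′ terminal oligopyrimidine (TOP) motif, through which growth signals that pass by the kinase mTOR set how strongly these mRNAs are translated. In the heart, growth of muscle mass is tied to the making of new ribosomes, and striated muscle has its own form of one large-subunit protein, Rpl3l, which takes the place of Rpl3 in the mature tissue.

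The letters around the annotated transcription start are shown for some of the members that the results turn on, for Rplp1 and for Rpl3l. They come from RefSeq (build GRCr8), run 5′ to 3′ on the strand of the gene, begin 10 bases before the annotated start and hold 20 bases from it on, and capitals mark the longest run that begins with C and goes on with at least 4 bases that are C or T.
Rpl10a (chr20:6390523-6390552, + strand): cttctgCCTTCTTTTCCggttcccgcagcc
Rplp0 (chr12:46718371-46718400, - strand): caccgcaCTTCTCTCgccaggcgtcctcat
Rps26 (chr7:1643385-1643414, - strand): ccgccgggtCCTCTTTCgagtcttggctcc
Rplp1 (chr8:71290853-71290882, - strand): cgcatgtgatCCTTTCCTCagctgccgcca
Rps9 (chr1:74430418-74430447, - strand): cggccacgtttCTCTTTgtcacgggcctga
Rps6 (chr5:106420521-106420550, - strand): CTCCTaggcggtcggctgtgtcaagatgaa
Rpl3 (chr7:113507971-113508000, - strand): gcctgctcgatctctatcggcggcgtgtgg
Rpl3l (chr10:14258436-14258465, + strand): ctggtgcctggtggggaggtCCCTTCCTaa
In Rplp1 the run starts exactly at the annotated start, in Rpl10a, Rplp0 and Rps26 it spans it, and in Rps9 it lies 1 base further on. In Rps6 the run ends before the annotated start, and the window of Rpl3 holds none. The windows of Rps12 and Rps3, which are not printed, hold none either.

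Promoter entries were found for 62 of the 77 genes (63 entries, because 1 gene has a pair of them). A C at the annotated start with at least 4 C or T after it, read on the strand of the gene only, stood in 24 of the 63 entries (38.1%) and in 2.63% of all 33469 promoters. A C with at least 5 C or T after it, beginning from 5 bases before the start to 10 after it, stood in 36 entries (57.1%) and in 12.8% of all promoters. An annotated start can lie some bases from the one used in the heart, and a window without the run says only that these letters are not in it.

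All 77 genes passed the filter on dim probes in both sexes, and 201 member probes did so in males and 200 in females. The probe reported for a gene was the one with the highest mean over the 32 arrays. It was well above background on all 32 arrays for each of the 77 genes, and no member spot was saturated. Ribosomal protein genes have many processed copies in mammalian genomes. The array annotation placed 71 of the 77 reported probes on the chromosome where RefSeq has the gene. The other 6 include those of Rpl10a (chromosome 4 against 20) and Rpl38 (2 against 10), and that of Rpl36, placed on no named chromosome. Whether signal from such copies adds to a probe was not tested. The number of spots well above background was 34920 to 43155 per array, and summed levels of 10 cardiomyocyte markers, from 21.13 to 21.52 on the log2 scale over all arrays, overlapped between the groups of each sex. The male gene Kdm5d was well above background on 16 of 16 male and 0 of 16 female arrays, whereas the female gene Xist was so on 0 arrays of either sex and checks nothing.

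Levels and differences below are on the log2 scale of quantile-normalised processed signal, so that 1 unit is a doubling, and a gene is called when its limma p, adjusted by Benjamini-Hochberg over all probes kept, passes a false discovery rate (FDR) of 1% against sham or 5% between CLP plus landiolol and CLP. Bulk tissue was measured, so that more cells of a type and more RNA per cell cannot be told apart. Values within a group were closer together for the members than for genes at large: the median SD over arrays was 0.12 for the members and 0.30 for all genes in sham males, and 0.23 against 0.40 in CLP females, the group with the widest spread of both.

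CLP and sham were compared to see what sepsis did to these mRNAs. In males, the family lay a little higher after CLP. The difference was above 0 for 76 of 77 genes (98.7%), against 49.7% of all 19498 genes, and its median was 0.19, against -0.0034 over all genes. The median was -0.10 over 359 genes outside the family that were at or above the lower quartile of the members' levels. The middle 50% of the members lay between 0.15 and 0.25, so that a typical member differed by about the size of 2 of its own standard errors (median SE 0.098).

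In the fit described above 1 of the 77 genes was called in males, Rpl3, where 8.24% of all genes were. The count depended on how the spread was modelled: with a prior that follows the level and with array weights, 27 members were called, all higher (35.1%), against 14.6% of all genes. At an unadjusted p under 0.05, 36 members were higher and none was lower. The share of all genes under that limit was not counted. At an FDR of 5% there were 8 members (Rpl3, Rps6, Rpl10a, Rplp0, Rps12, Rps9, Rps3 and Rps26), against 16.5% of all genes. The CLP and sham arrays did not overlap for 18 members, all higher after CLP, which is 23.4% of them, against 12.9% of all genes in either direction. The share of members called was thus below that of genes at large in the first fit and above it in the second.

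The array-by-array median shows the same shift. Taking for each gene the level minus its mean in sham, the median over the 77 genes was 0.15, -0.045, -0.012, -0.056 and 0.0060 in the 5 male sham rats. It was 0.19, 0.19, 0.16, 0.19 and 0.285 in the 5 male CLP rats. The lowest CLP array lay just above the highest sham array, replicate 1, and sham replicates 2 to 5 lay well below both.

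**Figure D1:**
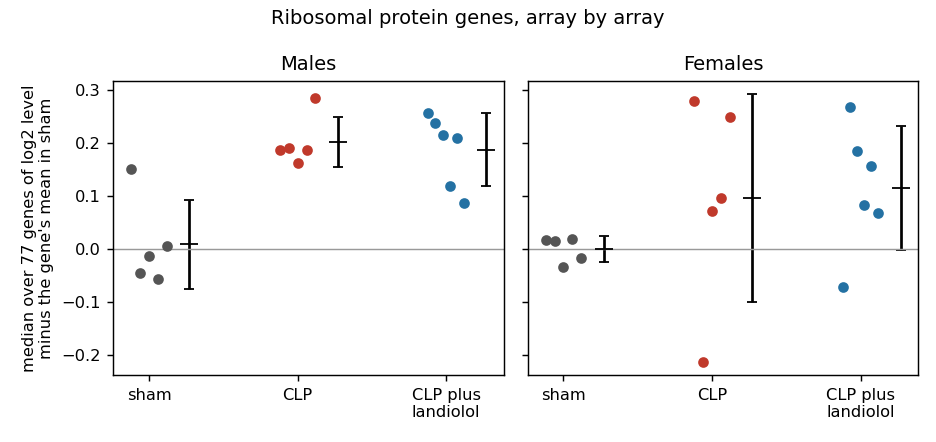
Median over the 77 ribosomal protein genes of the log2 level minus the gene's mean in sham (vertical axis), for each array (points) of the sham, CLP and CLP plus landiolol groups of males (left) and females (right); bars give the mean and SD of each group. The 5 male CLP arrays lie between 0.16 and 0.285, above the male sham arrays, whereas the female CLP arrays range from -0.21 to 0.28.

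The arrays of each sex were on 2 slides, numbered within the sex, and each slide held all groups. Males and females were on different slides. Within slide 1 the male median difference of CLP from sham was 0.15 and within slide 2 it was 0.25. Within the rows of the slides it was 0.18 in row 1 and 0.23 in row 2. The male median was 0.16 to 0.22 over the other ways of processing that were tried, and 0.23 when only the 7 CLP and sham arrays with a median processed signal of 100 or more were used.

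Rpl3, a large-subunit protein near the site where the peptide bond is made, stood apart from the others. Its level was 14.54, 14.26, 14.25, 14.02 and 14.24 in the 5 male sham rats. After CLP it was 14.67, 15.07, 14.70, 14.82 and 14.93, so that every CLP array lay above every sham array. The difference was 0.58 (SE 0.13, limma adjusted p = 0.0077), which is 49.3% more signal on the linear scale. The call was lost in 4 of the other ways of processing (adjusted p = 0.012 to 0.018) and on leaving out any 1 of 8 arrays, whereas the difference stayed between 0.52 and 0.65 with 1 array left out. Its only probe lies at chr7:118314786-118314845 on the - strand in build rn4 of the array annotation, in the mRNA of Rpl3, and whether that is coding or untranslated sequence was not looked up.

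Rps6, the small-subunit protein that the kinases downstream of mTOR phosphorylate, was at 15.20, 15.03, 15.16, 15.06 and 15.12 in male sham rats and at 15.29, 15.45, 15.50, 15.51 and 15.58 after CLP. These arrays did not overlap, and the difference of 0.35 (SE 0.087, adjusted p = 0.011) missed the 1% limit narrowly. Rplp0, the base of the stalk that recruits elongation factors, was at 17.40 to 17.44 on all 5 male sham arrays and at 17.58 to 17.82 on the CLP arrays. Its difference was 0.29 (SE 0.081, adjusted p = 0.022), with no overlap, and it was 0.17 (adjusted p = 0.46) when arrays were scaled by their 75th percentile. The other stalk proteins differed less, Rplp1 by 0.18 (SE 0.089, adjusted p = 0.21) and Rplp2 by 0.12 (SE 0.085, adjusted p = 0.41).

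Rps9, which sits at the mRNA entry of the small subunit, was at 15.72 to 15.86 in male sham rats and at 15.93 to 16.27 after CLP, and differed by 0.36 (SE 0.11, adjusted p = 0.030). Rpl10a was at 15.28 to 15.43 in sham and at 15.60 to 15.78 after CLP, and differed by 0.32 (SE 0.088, adjusted p = 0.021). Both had 3 probes, all of which lay higher after CLP. Rps12 was at 17.23, 16.88, 16.92, 16.90 and 17.04 in sham and at 17.21 to 17.42 after CLP, and differed by 0.34 (SE 0.094, adjusted p = 0.023). Sham replicate 1 alone reached into its CLP range.

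Rps3, at the mRNA entry channel, differed by 0.28 (SE 0.087, adjusted p = 0.040) and Rps26, at the mRNA exit, by 0.29 (SE 0.092, adjusted p = 0.045). Rps27, a zinc-binding protein of the small subunit, differed by 0.28 (SE 0.095, adjusted p = 0.054) and Rpl5, which brings the smallest ribosomal RNA into the large subunit, by 0.25 (SE 0.083, adjusted p = 0.055). Rpl11, the partner of Rpl5 in that particle, was at 16.57 in sham and 16.59 after CLP, a difference of 0.026 (SE 0.099). The difference between Rpl5 and Rpl11 was not tested.

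Other members with well-known roles were within 2 standard errors of 0 or close to it in males. Rpsa, also known as the laminin receptor, differed by 0.18 (SE 0.16), Rps27a, which is made fused to ubiquitin, by 0.19 (SE 0.091), Rps14 by 0.15 (SE 0.12) and Rps19, the gene most often mutated in Diamond-Blackfan anaemia, by 0.12 (SE 0.12). Rps29 differed by 0.094 (SE 0.11), Rpl13a, which can leave the ribosome and repress inflammatory mRNAs after interferon, by 0.13 (SE 0.11), Rpl22 by 0.11 (SE 0.11) and Rpl10, which joins the large subunit last, by 0.15 (SE 0.16). The lowest values of the family were 0.0012 for Rpl35a (SE 0.084) and -0.019 for Rpl38 (SE 0.15). By subunit, all 31 small-subunit genes and 45 of 46 large-subunit genes lay above 0, with medians of 0.21 and 0.19.

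**Figure D2:**
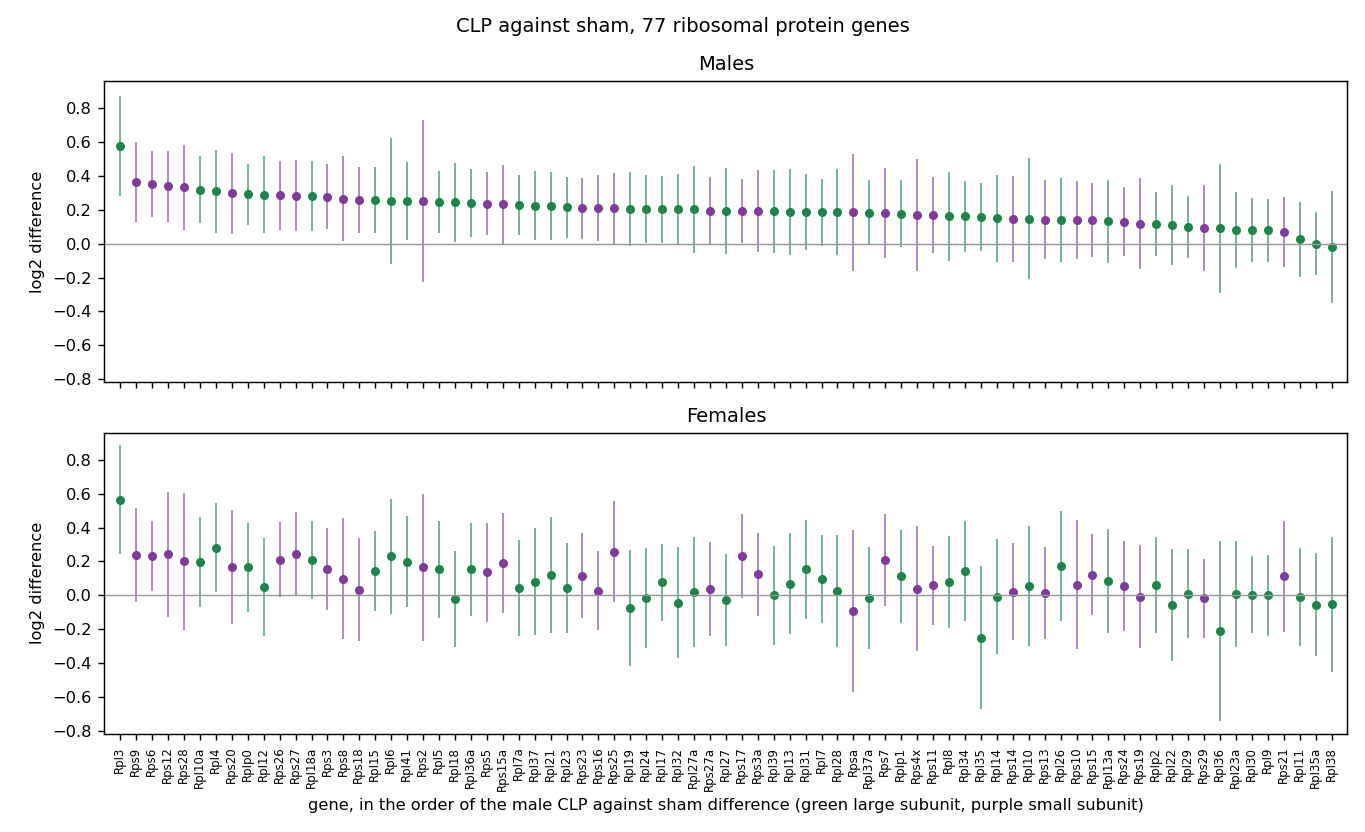
Difference of CLP from sham (vertical axis, log2) with its 95% confidence interval for each of the 77 genes (horizontal axis, in the order of the male values) in males (top) and females (bottom); green marks the large and purple the small subunit. Rpl3 leads in both sexes at 0.58 and 0.57; 76 male and 60 female points lie above 0.

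In females the shift was smaller and less uniform. After CLP 60 of 77 members lay above 0 (77.9%), against 48.2% of all 19236 genes, with a median of 0.076, against -0.016 over all genes. No member was called by limma, where 3.8% of all genes were. An unadjusted p under 0.05 was found for 4 members, all higher (share of all genes not counted). At an FDR of 5% there was 1 member, Rpl3, against 9.48% of all genes. Arrays of the 2 groups did not overlap for 1 member, Rps6, against 8.65% of all genes.

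The female CLP arrays lay far apart. The median over the members, against sham, was -0.034 to 0.020 in the 5 sham rats and 0.28, -0.21, 0.072, 0.097 and 0.25 in the 5 CLP rats, so that CLP replicate 2 lay below every sham array and 4 CLP arrays above them. Within row 1, the only row with both groups, the median difference was 0.031. Within slide 1 it was -0.051 and within slide 2 it was 0.18, and without CLP replicate 2 it was 0.14. It fell to 0.025 when arrays were scaled by their 75th percentile. Summed erythroid and platelet markers were at 17.28 in CLP replicate 4, against 11.94 to 13.95 on the other female CLP arrays, and their part in the member values was not tested.

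Rpl3 was at 13.80, 14.06, 14.48, 14.05 and 14.26 in the 5 female sham rats and at 14.93, 14.40, 14.55, 14.74 and 14.86 after CLP. Sham replicate 3 lay above CLP replicate 2, and the other arrays of the groups were apart. The difference of 0.57 (SE 0.15, limma adjusted p = 0.022) was close to the 0.58 of males. Rps6 was at 15.35 to 15.46 in sham and within 15.61 to 15.66 on all 5 CLP arrays, a difference of 0.23 (SE 0.094, adjusted p = 0.14) without overlap. Rpl4, a large-subunit protein that lines the exit tunnel, differed by 0.28 (SE 0.12, adjusted p = 0.16), and Rplp0 by 0.17 (SE 0.12, adjusted p = 0.46).

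Whether the effect of CLP differed between the sexes was tested as an interaction in limma over all 32 arrays normalised together. Sex and slide cannot be told apart in it, because the sexes were on different slides. No member was called for CLP against sham, for CLP plus landiolol against CLP or for CLP plus landiolol against sham at an FDR of 5%, and neither was any of the 19963 genes tested (0%). At an unadjusted p under 0.05 there were 0, 1 and 0 members, the 1 being Rps6 in the comparison of CLP plus landiolol with CLP (female minus male 0.22, SE 0.10, adjusted p = 0.97). The effect of CLP was larger in males for 72 of the 77 genes, with a median of -0.10 for female minus male. Members mostly moved together on an array, so that 1 array can set the sign of many, and no share over all genes stands beside this count. Without female CLP replicate 2 the female median was 0.14. For Rpl3 the difference between the sexes was -0.034 (SE 0.19).

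Landiolol was compared with CLP alone to see whether it moved these mRNAs in septic hearts. In males the median difference was -0.0044, against 0.0026 over all genes, with 36 members above 0 and 41 below. In females it was 0.032, against 0.022 over all genes, with 53 above 0 and 24 below. No member was called by limma in either sex, none had an unadjusted p under 0.05, and arrays overlapped for all 77. Of all genes, 1.64% were called in males and 0.0884% in females, and 2.38% and 1.2% did not overlap.

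The precision of these null values can be given. The 95% confidence interval of the landiolol difference lay within 0.5 either side of 0 for 73 of the 77 genes in males and for 73 in females, and within 1 for all 77 in both. The lowest values in males were those of Rps2 (-0.36, SE 0.21), Rpl6 (-0.31, SE 0.16) and Rpl28 (-0.22, SE 0.11). Rps6 lay 0.17 lower with landiolol (SE 0.083, adjusted p = 0.36) and Rpl3 lay at a mean of 14.77 against 14.84. In females Rpl36 had the highest value (0.23, SE 0.23) and Rps13 the lowest (-0.13, SE 0.12). Within the slides the male median was 0.069 and -0.11, and the female median 0.16 and -0.051, so that the sign changed between slides in both sexes.

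**Figure D3:**
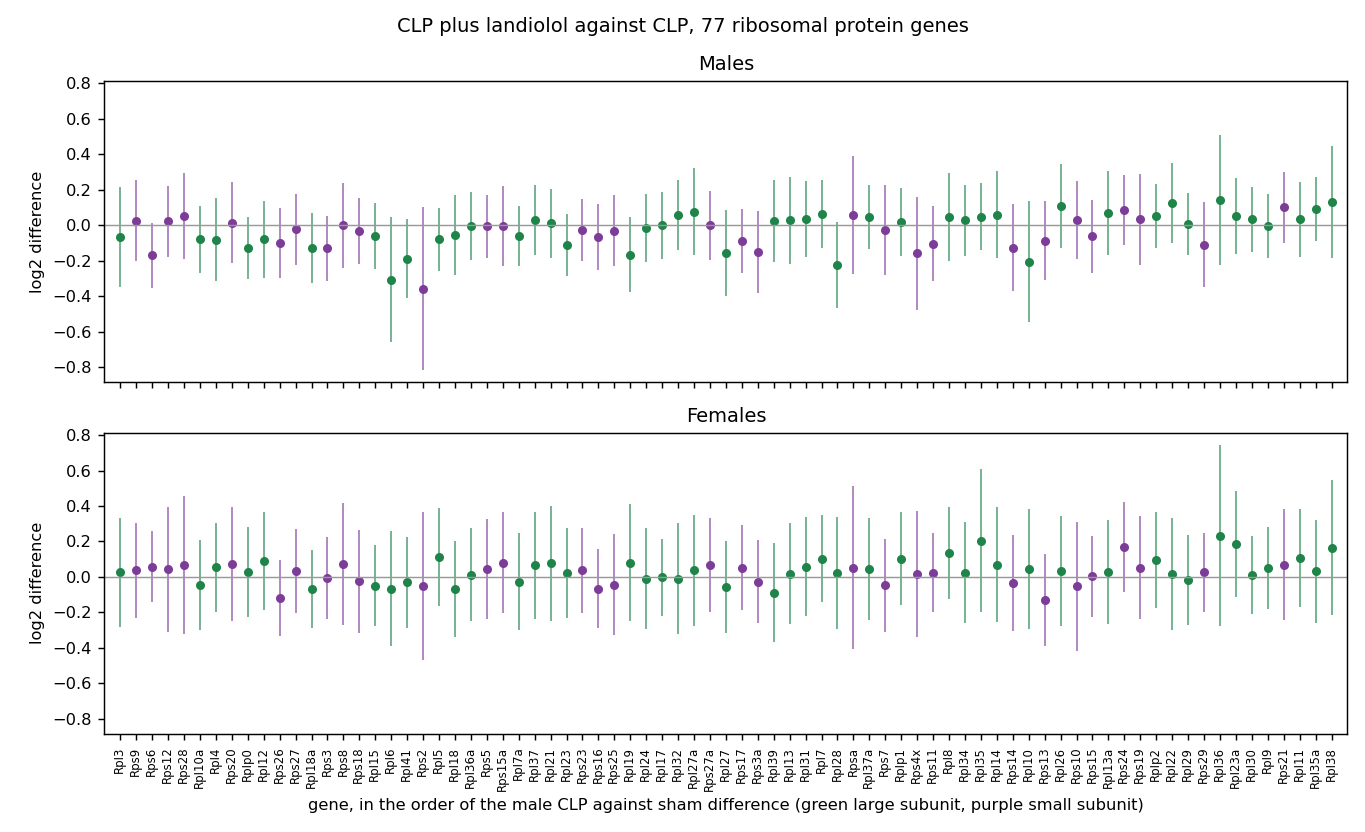
Difference of CLP plus landiolol from CLP (vertical axis, log2) with its 95% confidence interval for each of the 77 genes, in the gene order of the male CLP and sham comparison, in males (top) and females (bottom); green marks the large and purple the small subunit. The medians are -0.0044 and 0.032, and no gene was called in either sex.

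Septic rats given landiolol were also compared with sham, a comparison that shares its sham arrays with the first. In males the member median was 0.19, with 72 of 77 genes above 0 (93.5%) against 49.5% of all genes. No member was called, where 4.42% of all genes were. An unadjusted p under 0.05 was found for 34, all higher (share of all genes not counted). With the level-dependent prior and array weights 19 members were called, all higher (24.7%), against 9.69% of all genes. At an FDR of 5% there were 4 members, against 10.2% of all genes, and 11 members did not overlap, against 8.19%. Within slide 1 the median was 0.19 and within slide 2 it was 0.16.

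The 4 male members at an FDR of 5% were Rps12 (0.36, SE 0.090, adjusted p = 0.019), Rpl3 (0.51, SE 0.13, adjusted p = 0.019), Rps9 (0.39, SE 0.10, adjusted p = 0.025) and Rps28 (0.39, SE 0.11, adjusted p = 0.034). Rpl3 ranged from 14.48 to 15.11 with a median of 14.80 over the 6 male CLP plus landiolol rats, and the lowest of these lay under the highest sham array. Rps9 ranged from 15.95 to 16.37, above all 5 sham arrays. Rps28 was at 17.08, 16.69, 16.71, 16.63 and 16.83 in sham and from 16.92 to 17.38 with landiolol, and sham replicate 1 reached into that range. Rplp0 (0.16, SE 0.078, adjusted p = 0.21) and Rps3 (0.15, SE 0.083, adjusted p = 0.30) had smaller values than after CLP alone, a contrast that is part of the landiolol comparison above and was not called there.

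In females the median against sham was 0.11, with 64 of 77 members above 0 (83.1%) against 49.2% of all genes. No member was called, where 5.52% of all genes were. An unadjusted p under 0.05 was found for 7, all higher (share of all genes not counted). At an FDR of 5% there were 2 members, against 13.3% of all genes, and 6 did not overlap, against 10.3%. The 2 were Rpl3, which ranged from 14.53 to 14.91 with a median of 14.73 and lay above every sham array (0.59, SE 0.14, adjusted p = 0.011), and Rps6, from 15.54 to 15.78 with a median of 15.71, also above every sham array (0.29, SE 0.090, adjusted p = 0.046). Of the 3 probes of Rps9, a probe other than the reported one was called (0.41, SE 0.093, adjusted p = 0.0089), whereas the reported one gave 0.28 (SE 0.12, adjusted p = 0.15). Both of these probes carry the name Rps9 only in the annotation of the male files, and the third only in that of the female files.

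The female sham arrays were all in row 1 of their slides and the CLP plus landiolol arrays all in row 2, so that row and group cannot be told apart between them except through the CLP arrays, which lay in both rows. With row as a term the female median of CLP plus landiolol against sham was -0.00077, and Rpl3 differed by 0.42 (adjusted p = 0.65). Scaling by the 75th percentile gave a female median of 0.028, and the arrays with a median processed signal of 100 or more gave -0.020. The sign or size of the small female shift thus changed with these choices, while the male median against sham stayed between 0.15 and 0.21 over the alternatives that were run.

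Rpl3l, the muscle form of Rpl3, is not a member but was read beside it. Its level was 13.98, 14.57, 14.59, 14.84 and 14.45 in the 5 male sham rats and 13.85, 14.04, 14.31, 13.65 and 13.87 after CLP. Without sham replicate 1, which was low, the arrays did not overlap. In females it was 14.67, 14.44, 14.29, 14.47 and 14.29 in sham and 13.53, 14.06, 14.27, 14.16 and 13.44 after CLP, with every CLP array below every sham array.

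The difference of Rpl3l between CLP and sham was -0.54 in males (SE 0.21, limma adjusted p = 0.090) and -0.54 in females (SE 0.17, adjusted p = 0.061), and that between CLP plus landiolol and sham was -0.70 (SE 0.20, adjusted p = 0.033) and -0.64 (SE 0.16, adjusted p = 0.018). None of the 4 passed the limit of 1%. The female value with landiolol was called in 4 alternatives, whereas with row as a term it was -0.49 with an adjusted p of 0.66. The male one was called with the array weights and level-dependent prior (-0.68, adjusted p = 0.0057). All 4 stayed below 0 in every alternative that was run, those that left out single arrays included, with values from -0.83 to -0.37.

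The log2 ratio of Rpl3 to Rpl3l on the same array, set to 0 at the sham mean, ran from -0.59 to 0.79 in male sham rats, from 0.61 to 1.40 after CLP and from 0.47 to 2.10 with landiolol. In females it ran from -0.57 to 0.49 in sham, from 0.58 to 1.72 after CLP and from 0.94 to 1.68 with landiolol. All septic female arrays thus lay above all sham arrays, and in males only sham replicate 1 reached into the septic range. That array had a median processed signal of 77.1, and Rpl3l was lower on dim arrays in several groups, as given below. The pair was set side by side because the paralogs replace each other in muscle and after both values were known, so that no test is given for the ratio.

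**Figure D4:**
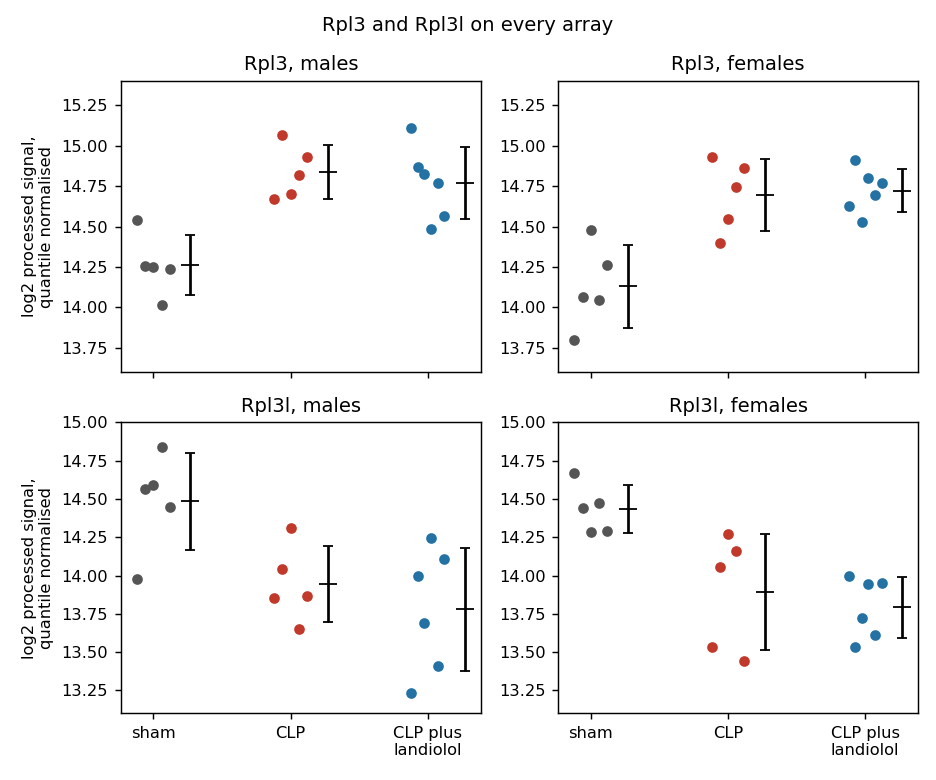
Level of Rpl3 (top) and of its muscle form Rpl3l (bottom) on every array (vertical axis, quantile-normalised log2 processed signal) in sham, CLP and CLP plus landiolol males (left) and females (right); bars give mean and SD. Rpl3 lay higher in septic rats (14.26 in sham and 14.84 in CLP males) and Rpl3l lower (14.48 and 13.95), with male sham replicate 1 the highest Rpl3 and lowest Rpl3l of its group.

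The other paralogs had wide intervals or values near 0. Rpl22l1, a relative of Rpl22, differed by 0.38 after CLP in males (SE 0.30, adjusted p = 0.46) and by -0.084 in females (SE 0.21, adjusted p = 0.87). Rps27l, a relative of Rps27 that p53 induces, differed by 0.059 (SE 0.17, adjusted p = 0.88) and -0.022 (SE 0.15, adjusted p = 0.96).

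Members did not all follow the family. The correlation of a member with the per-array median of the members, over the 16 arrays of a sex, had a median of 0.77 in males and 0.78 in females, and the lowest value in both was that of Rpl10 (-0.16 and -0.48). These points share the array and its normalisation, and the values are a description. Rps2, which lies at the mRNA entry beside Rps3, had the largest SD of all members in 4 of the 6 groups (0.34 in male sham rats).

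Both genes went with the brightness of the array. On the 6 male arrays with a median processed signal under 100 (49.2 to 81.6) Rps2 lay at 14.06 to 14.58 and Rpl10 at 14.65 to 15.02. On the 10 male arrays at 101 to 158 Rps2 lay at 14.84 to 15.25 and Rpl10 at 15.24 to 15.48, without overlap. In females Rps2 lay at 14.58 to 15.08 on the 8 arrays under 100 and at 15.10 to 15.48 on the other 8, whereas Rpl10 overlapped (15.31 to 15.94 and 15.64 to 16.18). Rpl3l, and with it the ratio to Rpl3, also went with brightness inside groups. In male CLP plus landiolol rats it was 13.24, 13.69 and 13.41 on the arrays under 100 and 13.99, 14.24 and 14.11 on the others. It was also lower on arrays under 100 in sham rats of both sexes and in female CLP plus landiolol rats, and overlapped in the CLP groups. With arrays of 100 or more only, its male difference from sham was -0.69 after CLP and -0.54 with landiolol. The limit of 100 was chosen after these values were seen, and each side held arrays of all 3 groups in both sexes.

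Of the 59 genes with 2 or more probes, 58 had at least 2 probes kept. Of these, 2 had probes on both sides of 0 for CLP against sham in males, and the median spread between the probes of a gene was 0.053. In females 22 had probes on both sides of 0, with a median spread of 0.090. No gene with probes on both sides held a called probe in any comparison. Over all probes kept, 198 of 201 lay above 0 in males and 158 of 200 in females.

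The run of pyrimidines at the annotated start was present in 3 of the 8 male members at an FDR of 5%, Rpl10a, Rplp0 and Rps26. The male median difference of CLP from sham was 0.18 over the 24 genes with the run at the annotated start and 0.21 over the 38 without it, which include Rpl3, and the female median was 0.067 over both. For CLP plus landiolol against sham the medians with and without the run were 0.19 and 0.19 in males and 0.084 and 0.13 in females. No test of this split was made.

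The other genes of the translation machinery were read from lists that were drawn up with earlier results of these data known, and are given by their counts and medians. Beside these counts, 8.24% of all genes were called after CLP in males and 3.8% in females, in either direction. Ribosome assembly factors were called higher in 10 of 79 cases after CLP in males, with a median of 0.32 and 72 above 0. Those with the largest values were Rcl1 (1.67, SE 0.16, adjusted p = 1.0e-05), which processes ribosomal RNA, Nob1 (0.92, SE 0.11, adjusted p = 8.3e-05), the nuclease that makes the final cut of small-subunit RNA, Wdr46 (0.85, SE 0.15, adjusted p = 0.0010) and the helicase Ddx21 (0.84, SE 0.18, adjusted p = 0.0046). In females 2 of 79 were called after CLP, a smaller share than that of all genes, and the median was 0.17. They were Rcl1 (1.26, SE 0.21, adjusted p = 0.0015) and Rrp12 (1.12, SE 0.24, adjusted p = 0.0087). With landiolol, 2 were called against sham in males, where 4.42% of all genes were, and 6 in females, where 5.52% were. None was called against CLP. In females, where row and group coincide in that comparison, none of the 6 was called with row as a term (adjusted p = 0.34 to 0.82), and Wdr46 went from 0.67 to 0.22 and Nob1 from 0.77 to 0.41.

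The list for RNA polymerase I and ribosomal RNA modification had 4 of 22 genes called higher after CLP in males and a median of 0.31. They were Taf1d (0.82, SE 0.17, adjusted p = 0.0038) and Polr1e (0.76, SE 0.16, adjusted p = 0.0042), both of the polymerase I machinery, Fbl (0.59, SE 0.13, adjusted p = 0.0056), the methyltransferase of ribosomal RNA, and Ncl (0.51, SE 0.11, adjusted p = 0.0045), nucleolin. In females none of the 22 was called after CLP and the median was 0.16.

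Other mRNAs known to carry the TOP motif had 4 of 16 genes called higher after CLP in males, with a median of 0.24. They were Pabpc1 (0.69, SE 0.15, adjusted p = 0.0056), the poly(A)-binding protein, Npm1 (0.59, SE 0.13, adjusted p = 0.0068), Hnrnpa1 (0.55, SE 0.10, adjusted p = 0.0017) and Eif4b (0.38, SE 0.087, adjusted p = 0.0073), a helper of the cap-binding complex. In females none was called and the median was 0.11. No elongation factor of the 9 listed was called in any comparison, with a median of 0.12 after CLP in males and 0.017 in females.

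Initiation factors were taken by name, as 52 genes called Eif with a number, which include the inhibitor Eif4ebp1. Of these, 4 were called higher after CLP in males (median 0.20), and in females 2 were higher and 1 lower (median 0.15). Eif4b is counted here and among the TOP mRNAs, and Eif4ebp1 here and in the mTOR and MYC list. The largest were Eif4ebp1, the protein that blocks the cap-binding factor until mTOR phosphorylates it (1.94 in males, SE 0.29, adjusted p = 0.00037, and 1.82 in females, SE 0.25, adjusted p = 0.00043), and Eif1a (1.42, SE 0.22, adjusted p = 0.00053, and 1.16, SE 0.21, adjusted p = 0.0029). Eif4e3, a relative of the cap-binding protein, was the one that fell in females (-0.97, SE 0.14, adjusted p = 0.00066). Of the 29 genes listed for control of translation by mTOR and MYC, Eif4ebp1, Ddit4, which holds mTOR back under stress (1.65, SE 0.29, adjusted p = 0.0014), and Max, the partner of MYC (0.69, SE 0.091, adjusted p = 0.00013), were called higher in males, 3 of 29 with a list median of 0.095 and 18 genes above 0. In females Eif4ebp1 and Max (0.71, SE 0.15, adjusted p = 0.0086) were called. The male shares called in both lists lay near the 8.24% of all genes.

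The mitochondrial ribosomal proteins, which serve the separate ribosome of the mitochondria, went the other way. Their median after CLP was -0.19 in males, with 8 of 74 genes above 0, and -0.18 in females, with 16 above 0. In both sexes the 2 genes called, both lower, were Mrpl12 (-0.77, SE 0.11, adjusted p = 0.00018 in males) and Mrpl34 (-0.63, SE 0.12, adjusted p = 0.0020). That is a smaller share than the 8.24% of all genes called in males and the 3.8% in females. Against sham, the medians with landiolol were -0.25 and -0.22. In the main fit, the cytosolic and mitochondrial ribosomal proteins thus had medians of opposite sign in each of these comparisons, and no test between the lists was made. For females with landiolol against sham, the cytosolic median fell below 0 with row as a term. It was -0.020 with only arrays of median signal 100 or more.

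**Figure D5:**
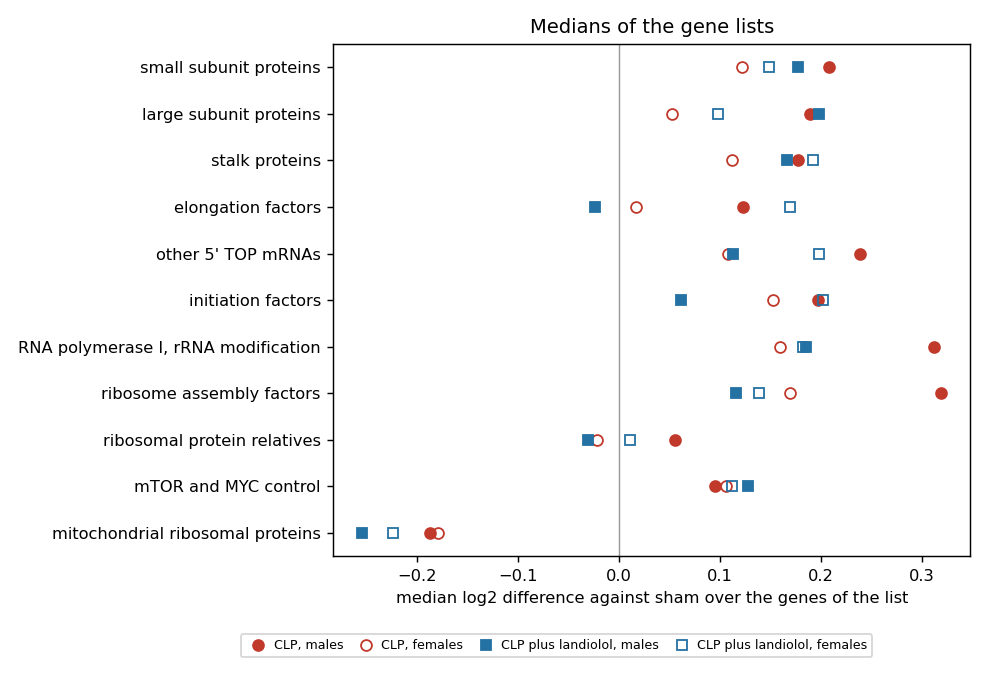
Median difference from sham (horizontal axis, log2) over the genes of each list (vertical axis) for CLP (red circles) and CLP plus landiolol (blue squares) in males (filled) and females (open). Assembly factors have the largest median after CLP in males (0.32), the small and large subunit proteins lie at 0.21 and 0.19, and the mitochondrial ribosomal proteins lie below 0 in all 4 comparisons.

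The 3 neutrophil markers kept by the filter and most macrophage markers lay higher after CLP in both sexes, and fibroblast markers fell in males. Summed levels of the 3 neutrophil markers measured (S100a8, S100a9 and Lcn2) were 9.99 to 10.41 in sham males and 14.07 to 15.92 after CLP, and all 3 were called higher. The sum is close to Lcn2 alone (means 10.19 in sham and 15.3 after CLP). S100a8 (2.4 and 6.6) and S100a9 (4.4 and 6.9) were far dimmer. Mpo, Camp, Cxcr2, Csf3r, Ngp and Np4 were not kept by the filter. Of 8 macrophage markers 4 were called higher (summed level 13.56 to 14.03 in sham, 14.96 to 15.52 after CLP), and of 7 fibroblast markers 4 were called lower (16.25 to 16.93 against 15.54 to 16.47). In females the neutrophil sum, again close to Lcn2 (means 11.07 and 14.89), was 9.83 to 12.36 in sham and 14.44 to 15.30 after CLP. There 2 of the 3 neutrophil and 3 of the 8 macrophage markers were called higher. None of the 7 fibroblast markers was called in females by limma at an FDR of 1%, with sums of 15.62 to 16.18 in sham and 15.34 to 16.33 after CLP and a median of -0.95. All 8 lymphocyte markers measured in males lay below 0 after CLP (median -0.81) and none was called. In females 2 of 7 lay above 0 (median -0.55), and Gzmb was called lower (-1.84, limma adjusted p = 0.0042). Of 8 endothelial markers only Emcn was called after CLP, lower in both sexes (-1.08 in males and -1.34 in females). Red cell and platelet markers went both ways: 3 of 6 lay above 0 in males (median 0.077) and 6 of 7 in females (median 1.65). Only Slc4a1 of that list was called, lower in both sexes (-3.25 and -2.96). With landiolol against CLP in males the neutrophil markers went different ways, Lcn2 by -1.53 (adjusted p = 0.031), S100a8 by 1.06 (adjusted p = 0.25) and S100a9 by 1.22 (adjusted p = 0.22). The part of these cells in the member values was not tested.

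Over the arrays of a sex, the genes outside the family whose level followed the member median most closely were Tbrg1, Irak3, Pabpc1, Kcnt1 and Gphn in males (Pearson r 0.93 to 0.95 over 16 arrays) and Eef1b2, Phf10, Reep3, Polh and Pabpc1 in females (0.89 to 0.91). Pabpc1 was in both lists, and Eef1b2 is an elongation factor subunit. The arrays share the treatment, so that these values describe likeness of pattern only.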

How the data were processed

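Per the file headers and the methods, 1-colour scans were read with Agilent Feature Extraction 10.5, and the deposited intensity is background-subtracted and detrended within the array. A further deposited table, which the authors quantile-normalised and filtered at 80% against background, holds log2 values, used here as an alternative, whose offset before the log2 is not given in the sources used here. Control spots and spots marked as outliers were left out, processed intensities were put on the log2 scale, spots of a probe averaged, and the 16 arrays of a sex quantile-normalised. Probes well above background on 80% of the arrays of at least 1 group were kept (25866 in males, 25395 in females). Groups were compared with limma 3.58.1 in R 4.3.3 (lmFit and eBayes, 3 groups in 1 fit per sex), adjusted by Benjamini-Hochberg over all probes kept. The significance analysis of microarrays that the methods used was not run. Functions were tested on simulated data. The members and lists were chosen with earlier results of these data known. Members were named by role or when called, list genes when called (at most 4 per list and comparison, by size), and the 5 other genes most like the member median, and further names were chosen after their values were seen. The number of arrays limits the precision.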

Additional observations from a re-analysis of the deposited data

Results flagged for a closer look

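Of 108 sets of 4 to 6 values of a gene, or of the member median, in a group, 4 held 1 array that lay far from the rest by Dixon's criterion, where chance gives about 1 in 20. Male CLP replicate 5 had the highest member median against sham, 0.285, with the next array at 0.191. Rps26 was 15.36 in male sham replicate 1 and 15.19 in the next highest sham array. Rpl4 was 15.69 in male CLP replicate 4 and 15.83 in the next lowest. Rps3 was 15.73 in male CLP plus landiolol replicate 2 and 15.59 in the next highest.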

How the results depend on the processing

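No paired analysis was possible because the labels give no replicate numbers that groups share. Single arrays left out gave 0 to 2 called members for CLP against sham in males, 0 to 1 for CLP plus landiolol against sham in males (1 without sham replicate 1) and in females (1 without sham replicate 3), and 0 in the other comparisons. Member medians then ranged from 0.18 to 0.21 and from 0.17 to 0.21 in males against sham, from 0.040 to 0.14 and from 0.095 to 0.15 in females, and for landiolol against CLP from -0.028 to 0.017 in males and from -0.048 to 0.080 in females. For CLP against sham in males, 0 members were called with the authors' table, no filter, row as a term or only 2 groups fitted. In these, 3.72% to 8.2% of all genes were called. There were 6 with normexp (7.79%, against 9.14% of all genes) and 27 with a trended prior and array weights (35.1%, against 14.6%). At an FDR of 5% there were 8 (10.4%, against 16.5%). For CLP plus landiolol against sham in males the counts were 1 with normexp, 19 with the trended prior and weights and 4 at an FDR of 5%. Of all genes, 5.21%, 9.69% and 10.2% were called there. In females the trended prior and weights gave 1 for CLP and 3 for CLP plus landiolol against sham, an FDR of 5% gave 1 and 2, and for the latter normexp, no filter and counting every probe gave 1 each. Using only arrays with a median signal of 100 or more, chosen after seeing the data, gave female medians of -0.14 for landiolol against CLP and -0.020 against sham, where the 75th percentile gave 0.028 and the row term -0.00077. The cause of these shifts was not tested. Over the alternatives, calls of genes in the related lists were kept in 865 cases and lost in 165, and on leaving out single arrays kept in 732 and lost in 248, and no sign turned.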
